A study of Mus musculus with 58 samples.

Results

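Kainate and metabotropic glutamate receptor genes were followed cell by cell in cells labelled as parvalbumin (PV) interneurons in the mouse ventral subiculum, the output region of the hippocampus. The 10 genes were taken by name from the 25648 genes of the count table: the kainate receptor subunits Grik1, Grik2, Grik3, Grik4 and Grik5, and the metabotropic receptors Grm2, Grm3, Grm4, Grm5 and Grm7. All 10 were present in the table and all 10 entered the comparison of the sexes. In these cells Grm5 was high everywhere, Grik1, Grik5 and Grik2 were high in most cells, Grik3 and Grm7 were high in some cells and near 0 in others, and Grik4, Grm2, Grm3 and Grm4 were high in a few cells only.

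Kainate receptors are glutamate-gated cation channels built from subunits named GluK. GluK1, GluK2 and GluK3 (Grik1 to Grik3) can form channels by themselves and bind agonist with lower affinity, whereas GluK4 and GluK5 (Grik4 and Grik5) bind it with high affinity and need a partner of the first kind to form a working channel. In hippocampal interneurons, kainate receptors are known both for depolarizing the cell and for changing GABA release. Metabotropic glutamate receptors act through G proteins: group I, to which Grm5 belongs, couples to Gq and phospholipase C, and groups II (Grm2 and Grm3) and III (Grm4, Grm6, Grm7 and Grm8) couple to Gi/o and lower cyclic AMP. Group II and III receptors are known mainly from presynaptic terminals, and Grm3 also from astrocytes.

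Each library was the cytosol of 1 cell drawn into a patch pipette from a PV-Cre::Ai9 mouse, in which Cre made from the parvalbumin gene switches on a red reporter; no library pooled cells, and every group carried the same alleles. Of 58 cells, 54 had the quality label Pass: 27 from females aged P40 (17 cells) or P42 (10 cells) and 27 from males aged P35 (14 cells) or P36 (13 cells), where P is the postnatal day. The 29 female cells came from 3 animals and the 29 male cells from 4, and no label ties a cell to its animal. For the comparison of the sexes, cells were therefore not taken as replicates but summed into 4 pools, 2 for each sex. Since both female pools were older than both male pools, sex and age cannot be told apart. The intervals given below for shares of cells do treat cells as independent.

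The Pass cells held 2.05 to 52.3 M counts (median 11.5 M), a range of 25.5-fold, and 0 pairs of cells had identical counts. All 10 PV interneuron markers had a count in at least 27 cells, as did 49.6% of all 25648 genes. The same held for all 10 astrocyte markers, all 10 microglia markers and 9 of 10 oligodendrocyte markers. That count therefore does not set PV interneurons apart from other cells. Gad1, which makes GABA, was at 1337 CPM or more in every cell. Pvalb was above Sst, a marker of another interneuron class, in 40 cells and at or below it in the rest. Pvalb itself lay under 10 CPM in 7 of the 54 cells. Of the 40 cells, male cells 11 and 21 held 2329 and 809 CPM of Vip, a marker of a further interneuron class. Their Pvalb levels were 323 and 174 CPM. Slc17a7, which loads glutamate into the vesicles of excitatory neurons, was at 100 CPM or more in 8 cells, 2 female and 6 male. These cells are kept below, and values without them are given for the shares that moved most and for the differences between the sexes.

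Levels are given as CPM, the gene's counts scaled by the total of its own cell. All 10 genes had at least 1 count in 27 or more of the 54 cells, as did 49.6% of all 25648 genes. At 1 CPM or more, 6 of the 10 did so (Grik1, Grik2, Grik3, Grik5, Grm5 and Grm7), beside 39.5% of all genes, and at 10 CPM or more 4 of the 10 did so (Grik1, Grik2, Grik5 and Grm5), beside 32.1% of all genes. A single count is a weak sign of expression in libraries of this depth. Among 18 genes of other organs, such as those of liver, heart and skin, the median gene had a count in 2 cells, but Apoa2 had one in 38 cells. At 1 CPM, 1 of these 18 genes was still found in at least 27 cells. At 10 CPM the same 18 genes were found in at most 8 cells each, and 4 of them in any cell. The counts of cells for Grm2 (8) and Grm4 (5) at 10 CPM are no higher than that maximum, and those for Grik4 and Grm3 (9 each) exceed it by 1 cell.

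**Figure D1:**
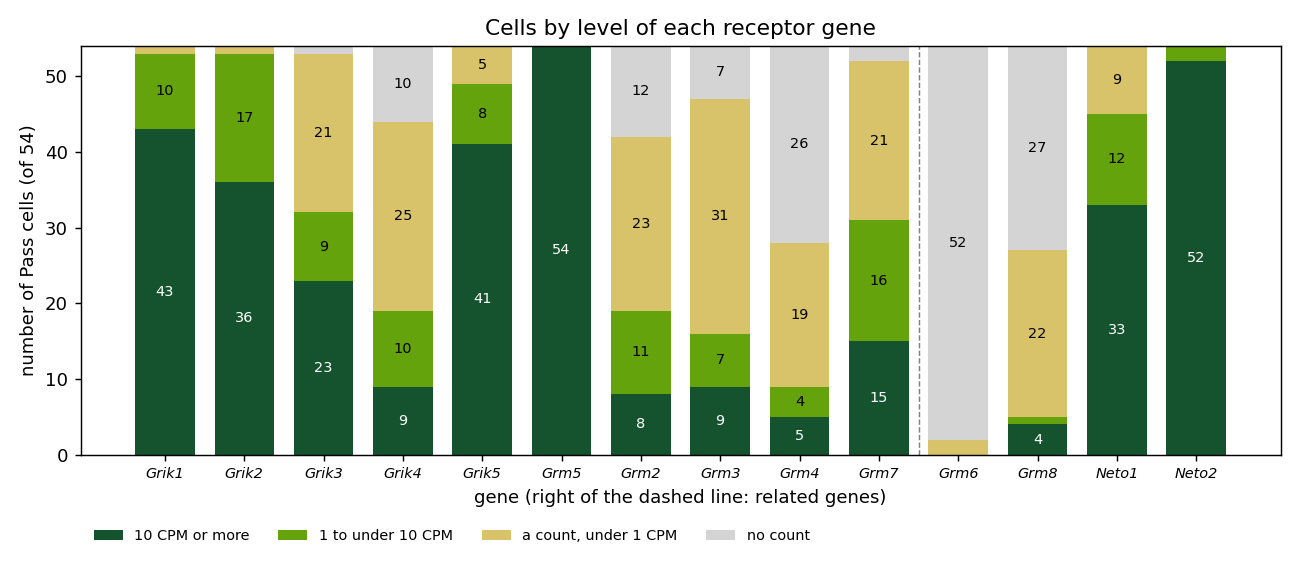
Stacked bars give, for each gene on the horizontal axis, the number of the 54 Pass cells (vertical axis) with 10 CPM or more, 1 to under 10 CPM, a count but under 1 CPM, and no count. Grm5 stands at 10 CPM or more in all 54 cells, while most cells of Grik4, Grm2, Grm3 and Grm4 lie in the lower 2 classes; Grm6, Grm8, Neto1 and Neto2 stand right of the dashed line.

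Grik1 (chr16:87895900-88290265 on GRCm38, minus strand), encoding GluK1, the subunit typical of interneurons in the hippocampus, had a count in all 54 cells and at least 10 CPM in 43 (79.6%, 95% exact interval 66.5 to 89.4%). Its level ran from 0.679 CPM through a median of 47.8 to 190 CPM in 27 female cells, and from 1.03 through 44.9 to 275 CPM in 27 male cells. The lowest and highest cells were thus over 100 CPM apart within each sex, and the medians of the sexes lay close together. Grik2 (chr10:49094833-49788766, minus strand) encodes GluK2, the subunit of principal neurons at mossy fibre synapses. It had a count in all 54 cells and at least 10 CPM in 36 (66.7%, 52.5 to 78.9%). Its CPM was 0.0591 at the lowest, 31.1 at the median and 110 at the highest in female cells, against 1.86, 16.8 and 149 in male cells.

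Grik3 (chr4:125490700-125714173, plus strand), encoding GluK3, divided the cells most. A total of 23 cells held 10 CPM or more (42.6%, 29.2 to 56.8%), 9 held 1 to under 10 CPM, and 22 lay under 1 CPM, 1 of them with no count. Female cells ran from 0 through a median of 0.770 to 68.8 CPM and male cells from 0.104 through 18.1 to 137 CPM. At 10 CPM or more there were 8 female and 15 male cells, and in the pool of female P40 cells 3 of 17. The SD of log2(CPM + 1) across cells was 2.24 for Grik3, the largest of the 10 genes, against a median of 1.91 over the members and 1.44 over the 14933 genes tested.

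The high-affinity subunits differed from each other. Grik5 (chr7:25009849-25072346, minus strand), encoding GluK5, had a count in all 54 cells and at least 10 CPM in 41 (75.9%, 62.4 to 86.5%), with 0.425, 26.1 and 76.9 CPM as the lowest, median and highest of the female cells and 0.417, 35.9 and 190 CPM of the male cells. Grik4 (chr9:42518135-42944493, minus strand), encoding GluK4, had a count in 44 cells but 10 CPM or more in only 9 (16.7%, 7.92 to 29.3%), 3 female and 6 male. Its median was 0.132 CPM in female cells, of which the highest held 49.6 CPM, and 0.536 CPM in male cells, of which the highest held 63.6 CPM. Male cell 20, at 63.6 CPM, gave 55.8% of the Grik4 counts of its pool, and female cell 21 gave 65.4% of those of female P40. Male cell 20 is 1 of the cells of high Slc17a7 (344 CPM), and without these 8 cells the median over cells was 0.267 CPM for Grik4, against 0.421 CPM over all 54. Of the 9 cells with 10 CPM or more of Grik4, 2 were among these 8. Without the 8 cells the share at 10 CPM was 15.2%.

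Grm5 (chr7:87584168-88134907, plus strand), the group I receptor mGlu5, was the one member at 10 CPM or more in all 54 cells (100%, 93.4 to 100%); 12.4% of the genes tested reached that level in every cell. It ran from 63.4 through a median of 150 to 388 CPM in female cells and from 16.6 through 123 to 338 CPM in male cells. Its SD of log2(CPM + 1) was 0.91, the smallest of the 10 genes.

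Group II was scarce. Grm2 (chr9:106643095-106656082, minus strand), the presynaptic mGlu2, had a count in 42 cells and 10 CPM or more in 8 (14.8%, 6.62 to 27.1%), 2 female and 6 male. It ran from 0 through 0.229 to 63.5 CPM in female cells and from 0 through 0.775 to 157 CPM in male cells. Of the 8 cells, 4 were among the 8 cells with at least 100 CPM of Slc17a7, and without these the share at 10 CPM was 8.70%. Over all cells the rank correlation of Grm2 with Slc17a7 was 0.46 (Spearman, 54 cells, which share libraries and depth with both genes). With the summed level of 10 excitatory neuron markers it was 0.28. The part of excitatory neuron RNA in the Grm2 level was not tested. Grm3 (chr5:9485541-9725170, minus strand), mGlu3, had a count in 47 cells and 10 CPM or more in 9 (16.7%, 7.92 to 29.3%), 6 female and 3 male, and ran from 0 through 0.403 to 101 CPM in female cells and from 0 through 0.217 to 37.3 CPM in male cells. Its rank correlation with the summed level of 10 astrocyte markers was 0.08 over the same cells.

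Of group III, Grm7 (chr6:110645581-111567230, plus strand), mGlu7 of the active zone, had a count in 52 cells, 1 CPM or more in 31 and 10 CPM or more in 15 (27.8%, 16.5 to 41.6%). Its CPM ran from 0 through 1.36 to 61.4 in 27 female cells, 5 of them at 10 CPM or more, and from 0.0765 through 3.16 to 66.7 in 27 male cells, 10 of them at 10 CPM or more. Of the 15 cells, 6 were among the 8 with high Slc17a7, and without those 8 cells the share at 10 CPM was 19.6%. Over all 54 cells the rank correlation of Grm7 was 0.15 with Slc17a7 and 0.29 with the summed level of 10 excitatory neuron markers. Grm4 (chr17:27422387-27521403, minus strand), mGlu4, had no count in 26 cells and 10 CPM or more in 5 (9.26%, 3.08 to 20.3%), 1 female and 4 male, none of them among the cells of high Slc17a7. Its median was 0 in female cells, of which female cell 16 held 51.0 CPM, and 0.109 CPM in male cells, of which male cell 17 held 64.1 CPM. Among the group III genes outside the 10, Grm8 reached 10 CPM in 4 cells and Grm6, known from retinal bipolar cells, had a count in 2 cells and reached 1 CPM in 0 of 54, which allows a share at that level of up to 6.60% (95% exact interval).

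**Figure D2:**
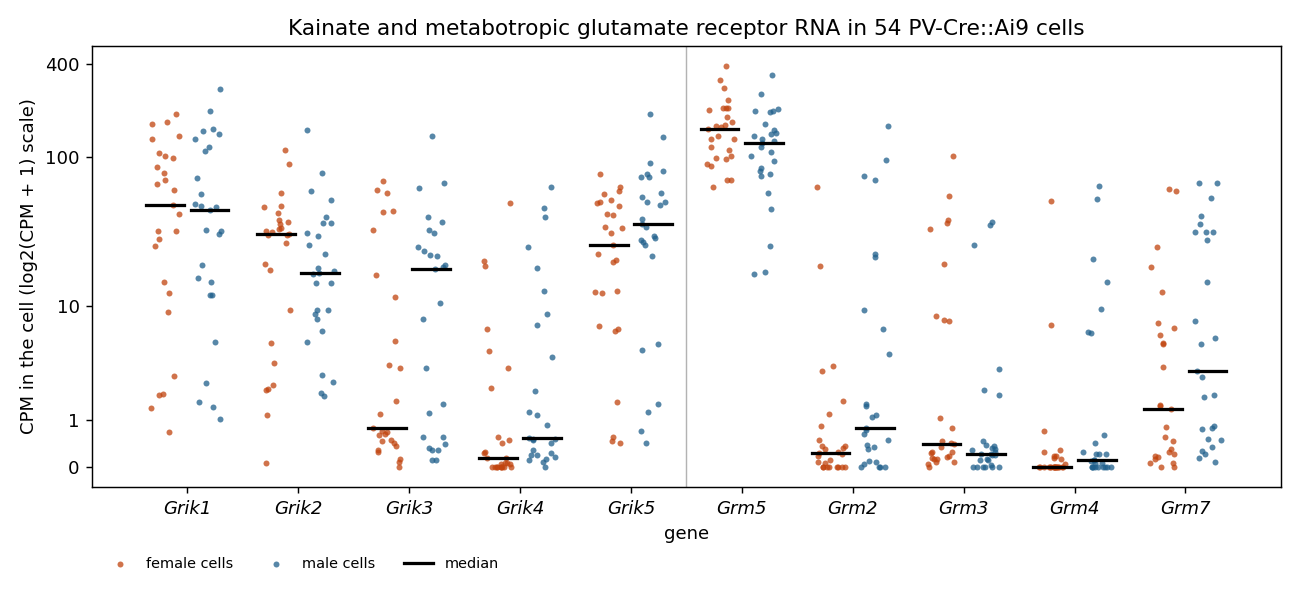
Each point is 1 Pass cell, with its CPM on a log2(CPM + 1) axis, for female cells (left in each pair) and male cells (right), and black bars are medians over 27 cells of each sex. Grm5 lies around medians of 150 CPM in female cells (63.4 to 388 CPM) and 123 CPM in male cells (16.6 to 338 CPM). Grik3 and Grm7 spread from about 0 to above 60 CPM in both sexes.

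The zeros were not confined to shallow libraries. The 26 cells with no Grm4 count held between 2.41 and 23.3 M counts, and in the deepest of them a count of 0 allows up to 0.129 CPM at the limit of 3 counts. For the 10 cells with no Grik4 count and the 12 with no Grm2 count the deepest held 28.9 M counts, which allows up to 0.104 CPM. These limits, and the thinning below, concern sequencing depth only. Loss of transcripts before sequencing was not tested, so a count of 0 does not show absence from the cell. After each cell was thinned at random to 2.05 M counts, the total of the shallowest, Grm5 and Grik1 were still found in all 54 cells, Grik2 in 53 (98.1%), Grik5 in 51 (94.4%), Grik3 in 46 (85.2%) and Grm7 in 40 (74.1%). Grm3 was then found in 34 cells (63.0%), Grm2 in 32 (59.3%), Grik4 in 28 (51.9%) and Grm4 in 14 (25.9%). Unthinned, a count was found in 96.3% of cells for Grm7, 87.0% for Grm3, 77.8% for Grm2, 81.5% for Grik4 and 51.9% for Grm4.

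Levels were compared between genes after division by exon length, taken over all annotated exons of a gene together. The lengths of the transcripts in these cells were not measured and can be shorter, which limits the order below and the family shares. Per kb of exon, the median over 54 cells was 12.8 CPM for Grm5, 6.84 for Grik1, 6.33 for Grik5, 1.84 for Grik2, 0.376 for Grik3, 0.318 for Grm7, 0.0886 for Grm3, 0.0743 for Grm2, 0.0706 for Grik4 and 0.00801 for Grm4. Of the 9 pairs of neighbours in this order, 3 were ordered the same way in all 4 pools: Grm5 above Grik1, Grik5 above Grik2, and Grm2 above Grik4. The last pair was close in single cells, with Grm2 the higher in 26 of 54 and 4 ties, and in CPM without exon length Grik4 (0.421) was above Grm2 (0.364) and 2 pairs of neighbours held in all 4 pools. Grik1 and Grik5 were not separable: Grik1 was the higher in 28 of 54 cells and had the higher median in 3 of 4 pools. Grik3 and Grm7 were likewise close, with Grik3 the higher in 28 cells. On the same scale the AMPA receptor subunits, carriers of fast excitation, had medians of 96.7 (Gria1), 21.8 (Gria2), 26.6 (Gria3) and 34.6 CPM per kb (Gria4), all above Grm5, and the required NMDA receptor subunit Grin1 had 24.4 CPM per kb.

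Within the kainate family, the leading subunit changed from cell to cell. By share of the summed CPM per kb, Grik1 led in 25 cells (15 female, 10 male), Grik5 in 22 (7 female, 15 male), Grik2 in 5 (4 female, 1 male), Grik4 in 2 (1 female, 1 male) and Grik3 in 0. The share of Grik1 ran from 0.832 to 98.0% with a median of 32.2%, and that of Grik5 from 0.344 to 87.9% with a median of 38.0%. No one subunit was therefore the main one in these cells as a group. Among the 5 metabotropic genes, Grm5 led in 44 cells (24 female, 20 male), Grm2 in 4, Grm3 in 3, Grm4 in 3 and Grm7 in 0, and the share of Grm5 had a median of 77.1% (range 19.3 to 99.5%).

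**Figure D3:**
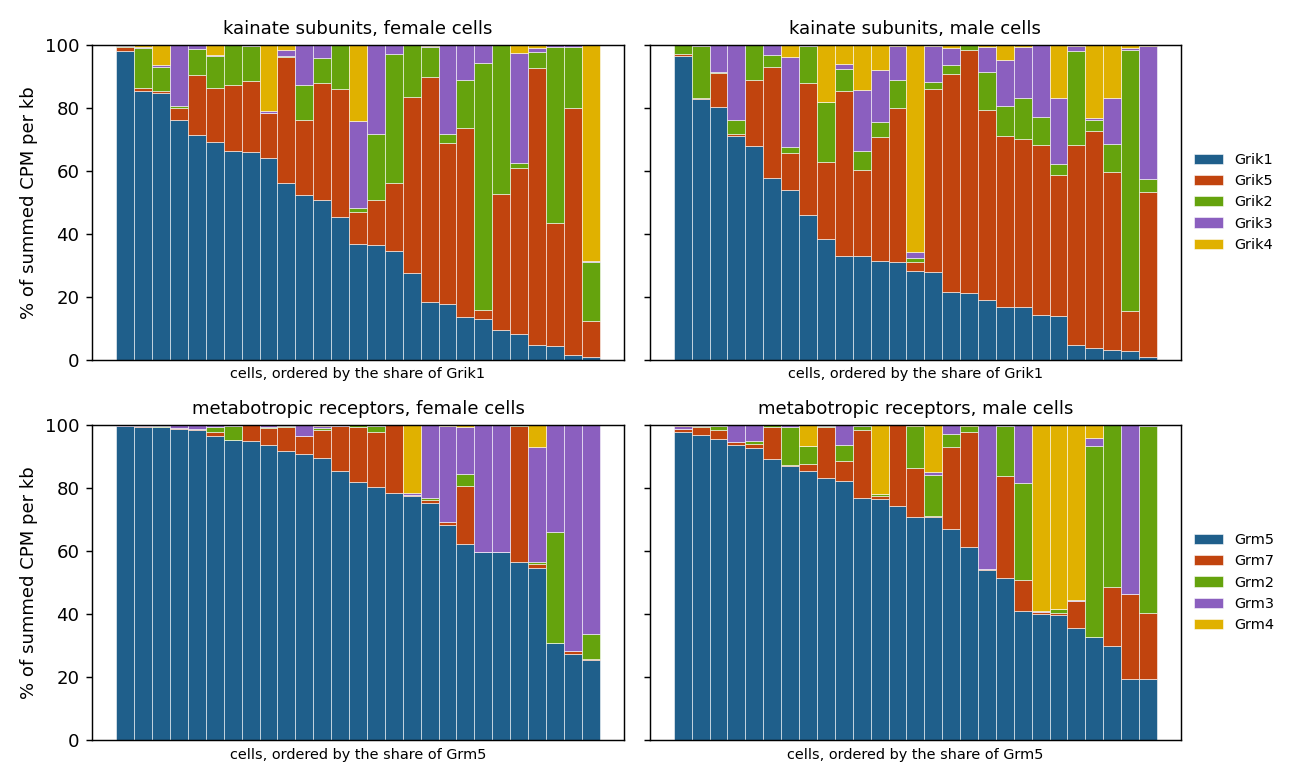
Each bar is 1 cell and shows in percent how the summed CPM per kb of the 5 kainate subunits (top) or the 5 metabotropic receptors (bottom) divides among the genes, in female cells (left) and male cells (right), ordered by the share of Grik1 or Grm5. Grik1 and Grik5 alternate as the largest kainate share, and Grm5 takes most of the metabotropic sum in 43 of the 54 cells.

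At 10 CPM or more, cells held 20 different combinations of the 5 kainate subunits, and at 1 CPM or more they held 9. The number thus depends on the threshold, and the part of transcripts lost at capture was not tested. The combinations that follow are those at 10 CPM. The most frequent was Grik1, Grik2 and Grik5 in 12 cells, followed by the same with Grik3 in 9 cells and by Grik1, Grik3 and Grik5 in 5 cells; 2 cells, both male, held all 5. A high-affinity subunit stood beside at least 1 of GluK1 to GluK3 in 42 cells, GluK1 to GluK3 without GluK4 or GluK5 in 10 cells, and GluK5 without any of GluK1 to GluK3 in 2 cells. At 1 CPM or more these last 2 cells also held a GluK1 to GluK3 subunit: 50 cells then had both kinds, 4 had GluK1 to GluK3 alone and 0 had a high-affinity subunit alone. For the Gi/o-coupled receptors, 26 cells (15 female, 11 male) held none of Grm2, Grm3, Grm4 and Grm7 at 10 CPM, 20 held 1, 7 held 2 and 1 held 3. Grm4 shared no cell with Grm2, Grm3 or Grm7 at that level, with 5 cells for Grm4 in all.

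**Figure D4:**
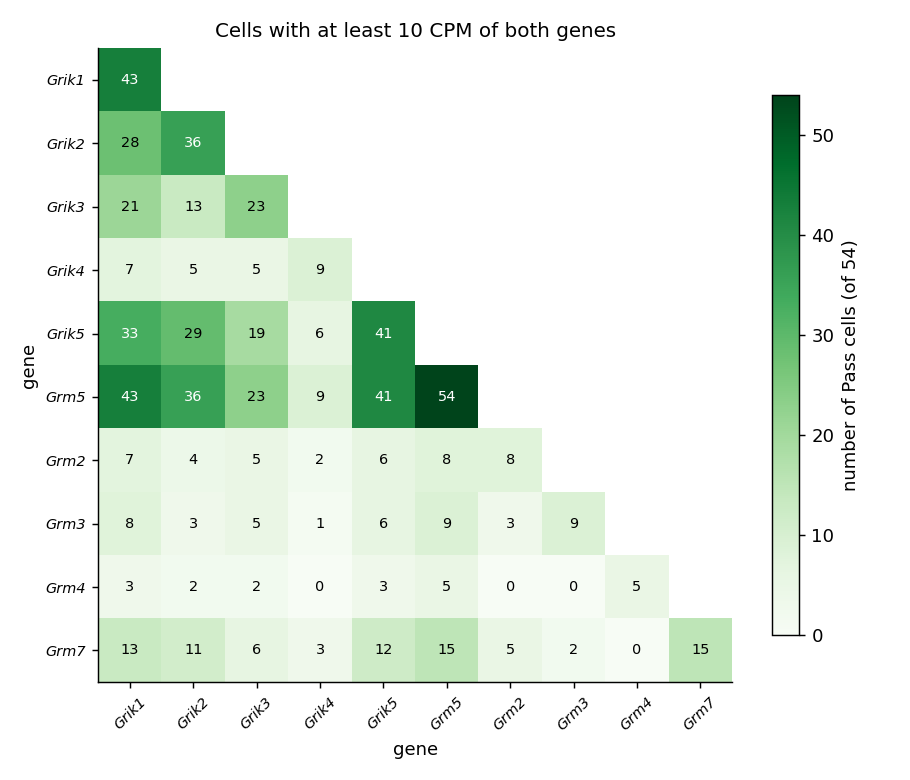
The grid gives the number of the 54 Pass cells with at least 10 CPM of both the row gene and the column gene, and the diagonal gives the number for each gene alone. Grik1 and Grik5 stood together in 33 cells, Grik1 and Grik2 in 28, and Grm2 and Grm3 in 3. Such numbers depend on how many cells each gene had alone: 43 for Grik1, 41 for Grik5, 36 for Grik2, 8 for Grm2 and 9 for Grm3. Whether genes shared cells more or less often than these numbers give was not tested.

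Across the 54 cells the 10 genes varied largely apart from each other. The 45 pairwise rank correlations of CPM ran from -0.33 to 0.39 with a median of 0.02 (Spearman; a description, since cells share animals and depth), and 4 of them exceeded 0.3 in size. These were Grik3 with Grm2 (0.39), Grik5 with Grm2 (0.35), Grm3 with Grm7 (-0.33) and Grik2 with Grik4 (-0.33). Toward markers, Grm7 had -0.47 with the summed PV interneuron list but -0.02 with Pvalb alone. Grik1 had 0.21 with that list but -0.39 with Pvalb alone, and 0.39 with the summed SST interneuron list. In the 40 cells with Pvalb above Sst the median of Grik1 was 32.5 CPM, against 46.0 CPM in all 54 cells. Grik2 had -0.44 with the summed astrocyte markers. With the recorded values labelled rm, cm and vrest, given for 49 of the cells, the strongest rank correlations were those of Grm3 (0.35) and Grik1 (0.31), both with rm.

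Among 10134 genes with 1 CPM or more in at least 27 cells, those most like Grik1, Grik2, Grik3, Grik5, Grm5 and Grm7, the members at that level in as many cells, reached rank correlations of 0.45 to 0.57 over the 54 cells. The nearest to Grik1 were Sh2d3c (0.57), Cartpt (0.55) and Rbp4 (0.54). Those nearest to Grik2 were Sec14l1 (0.53), Osbpl6 (0.51) and Fpgs (0.51), and to Grik3 Cfap69 (0.54), Rffl (0.52) and Tmem145 (0.52). Grik5 was most like Hadh, Rprml and March4 (0.48 each). Grm5 was most like Wdr59 (0.53), Pnisr (0.53) and Zbtb43 (0.49), and Grm7 most like Tagln3 (0.50), Cadps2 (0.48) and Prr13 (0.45). None of these genes was itself a member, and the highest of so many correlations is high by selection.

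Female and male pools were then compared for the 10 genes within a fit of 14933 genes (edgeR's quasi-likelihood test, two-sided, Benjamini-Hochberg adjusted p under 0.05). The fit called 2 genes, or 0.0134%, the Y-linked Ddx3y and Eif2s3y, both higher in male, and 823 had an unadjusted p under 0.05. With edgeR none of the 10 members was called (0 of 10), and 0 had an unadjusted p under 0.05; DESeq2 and limma also called 0, with 3 and 1 at an unadjusted p under 0.05. Pools of the sexes did not overlap for 4 of the 10 members, beside 33.9% of all genes tested. Of the 10, 3 lay higher and 7 lower in female pools, with a median log2 difference of -0.54 against 0.0044 over all genes tested. Only 2 pools stand for each sex, and the p-values measure the spread between these pools.

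The 4 members without overlap were Grm5, Grik5, Grm2 and Grm3. Grm5 stood at 153 and 157 CPM in the female P40 and P42 pools, against 119 and 111 CPM in the male P35 and P36 pools (CPM of the TMM-scaled pool total here and below), a log2 difference of 0.44 ± 0.19 (SE; edgeR adjusted p = 0.909). Grik5 stood at 26.6 and 23.9 CPM in the female pools, against 56.3 and 31.4 CPM in the male pools, a log2 difference of -0.79 ± 0.40 (edgeR adjusted p = 0.943). The 2 genes ran in opposite directions, and neither difference was set apart from the spread between pools by the test.

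Grm2 stood at 0.948 and 8.93 CPM in the female pools, against 18.5 and 19.4 CPM in the male pools, with a log2 difference of -1.94 ± 0.99 (edgeR adjusted p = 0.950). A few cells made these values: female cell 18 gave 95.9% of the Grm2 counts of female P42, female cell 2 63.9% of female P40, male cell 20 50.8% of male P35 and male cell 25 55.6% of male P36. Without the 8 cells of high Slc17a7 the log2 difference was -0.82 (edgeR adjusted p = 0.9996). Grm3 stood at 10.1 and 12.3 CPM in the female pools, against 3.17 and 4.47 CPM in the male pools, with a log2 difference of 1.55 ± 0.81 (edgeR adjusted p = 0.956). Male cell 8 gave 91.9% of the Grm3 counts of male P35, and female cells 17 and 18 gave 43.7% and 41.9% of those of female P42.

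The other 6 members overlapped between the sexes. Grik1 had 57.2 and 76.9 CPM in the female pools, against 59.0 and 96.0 CPM in the male pools, with a log2 difference of -0.21 ± 0.32 (edgeR adjusted p = 0.996). Grik3 had 7.07 and 19.5 CPM in the female pools, against 21.4 and 18.7 CPM in the male pools, with a log2 difference of -0.60 ± 0.61 (edgeR adjusted p = 0.990) that ran from -1.49 to -0.04 with each pool left out in turn. For Grik2 the log2 difference was 0.40 ± 0.47 (edgeR adjusted p = 0.993), from 49.6 and 25.9 CPM in the female pools and 36.5 and 20.8 CPM in the male pools. Female cell 3, the deepest library with 22.8% of the counts of female P40, gave 50.4% of that pool's Grik2, and without it the log2 difference was 0.01. Grm7 also turned on that cell: it gave 75.2% of the Grm7 counts of female P40, and the log2 difference was -0.47 ± 0.85 with it and -1.74 without it (edgeR adjusted p = 0.996 and 0.893). Grik4 (-0.86 ± 0.99, edgeR adjusted p = 0.993) and Grm4 (-1.36 ± 1.66, edgeR adjusted p = 0.993) had the widest errors beside Grm2, and female cell 16 and male cell 16 gave 97.9% and 97.0% of the Grm4 counts of female P42 and male P36. Without the 8 cells of high Slc17a7 the log2 difference was -0.16 for Grik4, 0.70 for Grik2, -0.80 for Grik3, -0.35 for Grik1, -1.70 for Grm4 and -0.34 for Grm7, all uncalled by edgeR. Those of Grik5, Grm3 and Grm5 were then -0.74, 1.86 and 0.41.

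**Figure D5:**
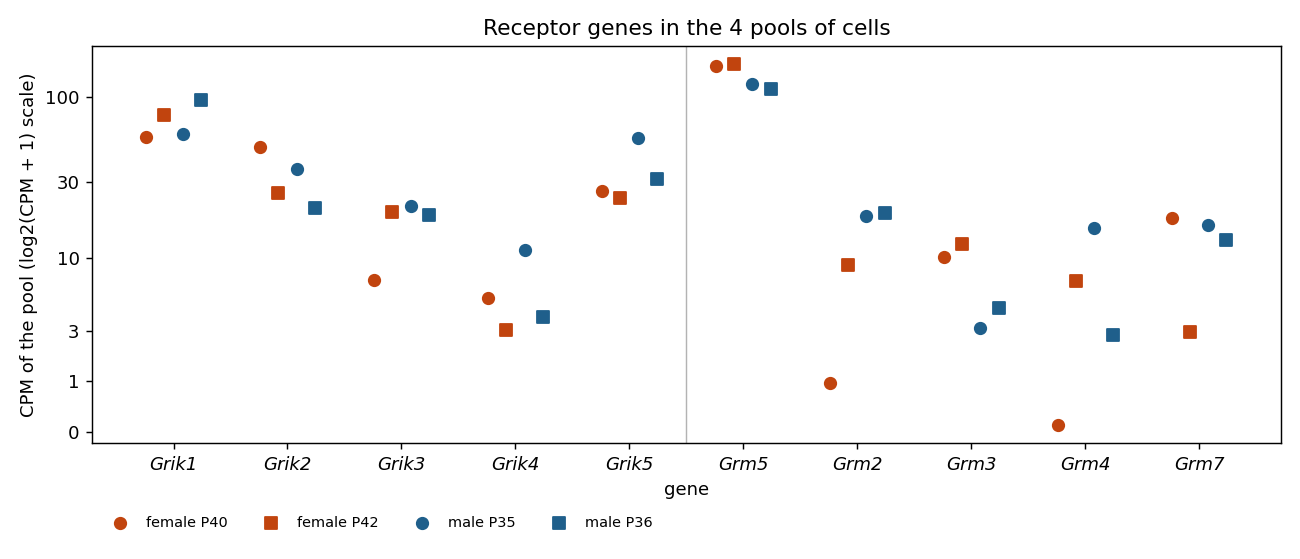
Points give the CPM of the TMM-scaled pool total, on a log2(CPM + 1) axis, in the female P40 and P42 pools (left in each group, orange) and the male P35 and P36 pools (right, blue). The pools of the sexes separate for Grik5, Grm5, Grm2 and Grm3 and overlap for the other 6 genes.

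Several marker lists of other cells leaned to 1 sex in the pools, though edgeR called 0 of their genes; 33.9% of all genes tested had pools that did not overlap. Of 10 excitatory neuron markers, all tested, 8 were lower and 2 higher in female pools with 9 not overlapping and a median log2 difference of -1.56; their summed level ran from 33.2 through 126 to 659 CPM in female cells and from 24.7 through 154 to 1253 CPM in male cells. Of 10 astrocyte markers, 8 were higher and 2 lower in female pools, 5 did not overlap and the median was 0.99, with sums of 99.7 through 814 to 5267 CPM in female cells and 228 through 704 to 1583 CPM in male cells. All 10 oligodendrocyte markers were lower in female pools (8 not overlapping, median -2.25), with sums of 97.7 through 490 to 2307 CPM in female cells and 151 through 478 to 12822 CPM in male cells. Of 10 markers of CGE interneurons, which arise in the caudal ganglionic eminence, 9 were lower (5 not overlapping, median -1.87), with sums of 4.28 through 202 to 1234 CPM in female cells and 64.7 through 278 to 3850 CPM in male cells. All 10 microglia markers were higher (1 not overlapping, median 1.06), with sums of 41.96 through 311 to 12775 CPM in female cells and 40.4 through 175 to 3417 CPM in male cells. No marker of these 5 lists was at 0 in every cell of a sex. Of the 6 endothelium and blood markers tested, 4 were higher and 2 lower in female pools, with 4 not overlapping and a median log2 difference of 1.66. With edgeR, 4 of the 6 had an unadjusted p under 0.05. Of the other lists, 7 of 10 PV interneuron, 3 of 6 SST interneuron and 4 of 8 oligodendrocyte precursor markers tested were higher in female pools. The part of these marker lists in the differences of Grm2, which is known from excitatory terminals, and of Grm3 was not tested beyond the values given above.

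RNA of most proteins that kainate and metabotropic receptors work with was found. Neto2, an auxiliary subunit that slows kainate receptor currents, had 10 CPM or more in 52 cells and ran from 1.24 through 101 to 391 CPM in female cells and from 5.90 through 65.1 to 164 CPM in male cells. Its paralogue Neto1 had 10 CPM or more in 33 cells, with a median of 17.1 CPM over the 54 cells. In the pools, Neto2 stood at 104 and 165 CPM in females, against 74.2 and 76.6 CPM in males (log2 difference 0.84 ± 0.27, unadjusted p = 0.015, edgeR adjusted p = 0.878). Of 14 kainate receptor partners, 13 were in the table and tested, 6 higher and 7 lower in female pools, 0 called and 2 at an unadjusted p under 0.05.

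Among 14 scaffolds and binding partners of metabotropic receptors, 12 had 1 CPM or more in at least 27 cells, beside 39.5% of all genes. Among these 12 was Ncdn (263 CPM per kb), which binds mGlu5. The same mark was reached by 9 of the 13 kainate receptor partners in the table. It was also reached by 13 of 20 genes of Gq signalling and 18 of 20 of Gi/o signalling. The 14 scaffolds and binding partners divided into 7 higher and 7 lower in female pools with 0 called and 0 at an unadjusted p under 0.05. Of 20 genes of Gq signalling, 19 were tested, 9 higher and 10 lower, with 0 called and 3 at an unadjusted p under 0.05. Rgs4, which limits Gq and Gi signalling, led that list by level per kb (183 CPM per kb), followed by the Gq-class alpha subunit Gna11 (36.8 CPM per kb).

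Of 20 genes of Gi/o signalling, 5 were higher and 15 lower in female pools, with 0 called, 1 at an unadjusted p under 0.05 and a median log2 difference of -0.13. The G protein subunits Gng3 (211 CPM per kb) and Gnb5 (112 CPM per kb) led them, and the adenylyl cyclase Adcy2 had the smallest p, with 5.88 and 5.58 CPM in the female pools, against 19.8 and 16.4 CPM in the male pools (log2 difference -1.66 ± 0.61, edgeR adjusted p = 0.887). The enzymes that edit GluK1 and GluK2 transcripts both had RNA in these cells, Adar at 8.06 and Adarb1 at 7.62 CPM per kb at the median. Adarb2, which lacks editing activity and also marks another interneuron class, had 10 CPM or more in 4 cells, and stood at 0.801 and 0.0407 CPM in the female pools, against 5.44 and 15.7 CPM in the male pools (log2 difference -4.64 ± 1.58, edgeR adjusted p = 0.878); male cell 11 alone held 67.4% of its counts over all cells. Of these 3 editing genes, 2 were higher and 1 lower in female pools, and 0 were called.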

How the data were processed

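Counts of 25648 genes in 58 single cells were used as the authors deposited them, as whole-number counts that were not normalized. The submitters' processing notes name STAR, edgeR and the build GRCm38. The counting tool, annotation and strand setting are not given in the sources used, so reads of Grm2, Grm4, Grm5 and Grm7 cannot be told from those of the genes annotated on their opposite strands. The signal that the authors deposited as normalized values served as an alternative. The members and gene lists were chosen with earlier results of these data known. Coordinates and exon lengths (known for 87.8% of genes) are from GENCODE vM21.

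CPM were computed from each cell's total. Counts of Pass cells were summed by sex and age into 4 pools and tested with edgeR 4.0.16 (R 4.3.3; TMM, quasi-likelihood, genes with a count in at least 10 cells that passed filterByExpr); alternatives used DESeq2 1.42.0 and limma 3.58.1. The fit was tested on simulated counts. P-values measure the spread between pools, which are independent only if no animal was used at 2 ages. Intervals are exact (Clopper-Pearson, 95%) and treat cells as independent draws. Cells share animals that the labels do not name, so the intervals leave out the spread between animals. The limit of 3 counts covers counting error only, since the labels name no molecular identifiers. Each library holds 1 cell, so no doublet caller was run.

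Named genes were the 10 members, Grm6, Grm8, Neto1, Neto2, the 2 highest genes per kb and the one with the smallest p of each partner list, and the 3 genes most like each member with 1 CPM in at least 27 cells; cells were named where they held over 25% of a pool's counts of a member. Some results under this rule are not reported here, though all fits and counts include the genes behind them. Genes set beside these for scale or as markers were added after their values were seen.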

Additional observations from a re-analysis of the deposited data

Results flagged for a closer look

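The 4 cells labelled Fail entered no comparison, yet 9 of the 10 receptor genes had more than 3 counts in at least 1 of them. The share of all genes passing that mark is not given here, so the count says nothing particular about these 10 genes. Summed over the 4 cells, Grm5 had 528 counts, Grik1 415, Grik5 183, Grik2 73, Grm3 56, Grik3 14, Grm7 11, Grik4 7 and Grm4 7. Grm5 ran from 27.5 to 179 CPM and Grik1 from 45.3 to 139 CPM in these cells, both within the range of the Pass cells. The Fail cells held 0.545 and 5.08 M counts (female cells 6 and 10) and 0.836 and 0.596 M counts (male cells 3 and 4).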

How the results depend on the processing

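Of the 120 recomputed log2 differences of the members, 115 kept their direction, and none was called under any alternative (lowest adjusted p 0.158, for Grm2 without the female P42 pool). Over these alternatives the differences ran from 0.33 to 0.50 for Grm5, from -1.16 to -0.31 for Grik5, from -4.31 to -0.82 for Grm2 and from 0.87 to 1.86 for Grm3. The 5 reversals came with a pool left out: Grik1 0.19 without male P36, Grik2 -0.14 without female P40, Grik4 0.11 and Grm4 0.36 without male P35, and Grm7 0.32 without female P42; with each pool left out in turn the values ran from -0.52 to 0.19 for Grik1, -0.14 to 0.86 for Grik2, -1.49 (without female P42) to -0.04 (without female P40) for Grik3, -1.43 to 0.11 for Grik4, -6.56 to 0.36 for Grm4 and -2.30 to 0.32 for Grm7. A lone pool was assumed to vary like those of the other sex. The number of genes called, 2, became 179 with DESeq2, 111 with no filter on low counts and 0 to 26 with 1 pool left out (26 without female P40, 6 without female P42, 1 without male P35, 0 without male P36); the cause was not tested. The number of members found in at least 27 cells, 10, became 6 at 1 CPM and 4 at 10 CPM, also 4 at 10 CPM without the cells of high Slc17a7 and 4 in cells with Pvalb above Sst; the last 2, and the fits without the cells of high Slc17a7 or the deepest cell, were chosen after seeing the data. All 30 recomputed medians moved by less than 1 SD over cells. That margin is wide: the SD was above the median for every member but Grm5, so a fall could not have exceeded it. For Grm4 the SD was 13.2 CPM and the median 0.0478 CPM, or 0.0191 CPM without the cells of high Slc17a7. The median of Grik1 was 46.0 CPM, and 32.5 CPM in cells with Pvalb above Sst. No paired analysis was possible because the pools carry no shared number. Depth limits what a low value shows in the shallowest libraries, and 2 pools for each sex limit the comparison.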
